A study of Mus musculus with 8 samples.

Results

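Aminoacyl-tRNA synthetases are the enzymes that join each amino acid to its transfer RNA. Their mRNAs were examined in mouse embryonic stem cells (ESCs) after depletion of ZZZ3 or of YEATS2, both part of ATAC (Ada-two-A-containing), a coactivator complex with histone acetyltransferase activity. The members were the protein-coding genes whose symbol is a single letter followed by ars, alone or with 1 or 2, together with *Farsa*, *Farsb* and *Eprs*, which encode a synthetase subunit or a fused enzyme. This rule gave 37 of the 55401 genes in the count files. No measured value entered it, but the members were chosen with earlier results of these data known. The 17 symbols ending in 2 were taken as the mitochondrial enzymes and the other 20 as the cytosolic enzymes.

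There were 8 RNA-seq libraries: 2 labelled Control, 3 labelled Zzz3_auxin and 3 labelled Yeats2_auxin. Auxin (indole-3-acetic acid) was given at 500 µM for 24 h in the Zzz3_auxin and Yeats2_auxin cultures, in which ZZZ3 or YEATS2 was fused to an auxin-inducible degron, so that adding auxin marks the protein for destruction. The shared growth protocol names serum, leukaemia inhibitory factor, the inhibitors CHIR99021 and PD0325901 (2i) and G418, which selects for Tir1, the plant F-box protein through which auxin acts. The labels give neither the line of the controls nor their treatment, nor how many clones were used or whether replicates were separate cultures. The study describes its ZZZ3 and YEATS2 experiments as vehicle (DMSO) against auxin in the respective degron line, but nothing ties the Control libraries, which serve both comparisons here, to either line. A comparison with Control therefore may hold any effect of auxin or of the line besides that of the depletion, and these cannot be told apart. P values measure only the spread between these libraries, which may be technical.

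Assigned reads numbered 14315120 to 27884704 per library, and 17532 genes passed the filter on low counts. All 8 ESC marker genes examined (*Pou5f1*, *Nanog*, *Sox2*, *Esrrb*, *Klf4*, *Zfp42*, *Tfcp2l1* and *Dppa5a*) were present at a mean of at least 1 CPM (counts scaled to library size), while 0 of 6 fibroblast markers were. This level was also reached by 1 of 4 primitive endoderm, 2 of 3 mesendoderm and 2 of 3 neuroectoderm markers. The neuroectoderm markers summed to 40.7 to 42.9 CPM in Control, 48.4 to 71.6 in Zzz3_auxin and 44.8 to 50.2 in Yeats2_auxin. The ESC markers summed to 5120 to 5295 CPM in Control, 4548 to 5183 in Zzz3_auxin and 4690 to 5341 in Yeats2_auxin. *Zzz3* mRNA was 184 ± 3.23 CPM in Control (SD, n = 2) and 95.5 ± 17.3 in Zzz3_auxin (n = 3), and *Yeats2* mRNA was 93.4 ± 3.51 CPM in Control and 74.8 ± 29.9 in Yeats2_auxin, with overlapping libraries. A degron removes the protein, so these mRNA levels do not check the depletion. Libraries differed in how counts followed the base composition of the genes. GC-rich genes (over 53.9%) had a median log2 level 0.43 above that of GC-poor genes (under 44.3%) in Zzz3_auxin replicate 3. The same difference was -0.59 in Control replicate 1 and from -0.08 to 0.15 in the remaining 6.

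Each synthetase activates its amino acid with ATP and transfers it to the matching tRNA, and the charged tRNA is then carried to the ribosome. Animal cells hold separate enzymes for cytosolic and for mitochondrial protein synthesis, both encoded in the nucleus, with *Gars* and *Kars* serving both compartments. The enzymes belong to structural class I or class II, and in the cytosol several of them assemble with the scaffold proteins AIMP1, AIMP2 and EEF1E1 in the multi-synthetase complex. Uncharged tRNA activates the kinase GCN2 (*Eif2ak4*), which raises translation of the transcription factor ATF4. ATF4 is known to activate many cytosolic synthetase genes together with genes of amino acid synthesis and uptake. It binds, with a C/EBP partner, to composite elements whose core is TGATGNAA, where N is any base.

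Promoter windows from RefSeq on GRCm38.p6, reaching from 250 bases before to 50 bases after the start of each gene, were found for 27 of the 37 members. On either strand, TGATGNAA occurred in 5 of them, *Aars*, *Gars*, *Iars*, *Tars* and *Yars*. These are 5 of the 13 cytosolic members with a window, against 0 of the 14 mitochondrial members with one. Over all 27025 genes in the table, 4.51% had the motif. One window for each of these genes is shown because it links the best known regulator of these genes to named members. Each is 30 bases long and runs 5′ to 3′ along the strand of the gene, with the match in capitals, which reads TTNCATCA where the motif lies on the opposite strand.

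Aars, chr8:111033840-111033869, plus strand: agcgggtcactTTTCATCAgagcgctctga
Gars, chr6:55037960-55037989, plus strand: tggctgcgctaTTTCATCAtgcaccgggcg
Iars, chr13:49682126-49682155, plus strand: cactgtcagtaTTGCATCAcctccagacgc
Tars, chr15:11399655-11399684, minus strand: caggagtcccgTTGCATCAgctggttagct
Yars, chr4:129189895-129189924, plus strand: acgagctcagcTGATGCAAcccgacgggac

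All of these 5 genes were on the list of known ATF4 targets, whose 12 members had a window in 8 cases. The E-box CACGTG, the core that MYC and its relatives bind, occurred in 5 of the 27 windows (*Aars*, *Ears2*, *Farsb*, *Iars* and *Tars*) and in 8.09% of all genes. It does not overlap the TGATGNAA matches in *Aars*, *Iars* and *Tars*. A match of letters is not a bound site, and a window without a match says nothing about the factor.

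All 37 members passed the filter, and each had at least 277 reads in every library. Exon length was that of all annotated exons of a gene, merged over its transcripts. It can exceed the length of the transcripts expressed, and levels per kilobase, their order and their ratios depend on it. *Eprs*, for example, had 802 CPM in Control over 18102 bases of exon and ranked 12 per kilobase. In Control, levels per kilobase of annotated exon spanned from 1.75 ± 0.152 CPM per kb for *Lars2*, the mitochondrial leucyl enzyme, to 134 ± 1.17 for *Gars*, the glycyl enzyme of both compartments (SD, n = 2). *Rars* (arginyl, 97.4 ± 4.89) and *Dars* (aspartyl, 95.5 ± 5.17) followed *Gars*, and *Wars2* (tryptophanyl, 3.00 ± 0.0129) and *Nars2* (asparaginyl, 3.21 ± 0.459) stood next to *Lars2*. The median was 46.5 CPM per kb over the 20 cytosolic members and 7.96 over the 17 mitochondrial members. In the order of Control levels, 19 of the 20 highest members were cytosolic. *Rars2*, the highest mitochondrial member, ranked 19 with 23.8 ± 1.76 CPM per kb, and *Farsa*, the lowest cytosolic member, ranked 21 with 22.4 ± 3.14. Of the 36 pairs of neighbours in this order, 22 had overlapping values in the 2 Control libraries, among them *Rars* and *Dars* and every step from *Sars* to *Farsa*. *Gars* lay above *Rars* without overlap.

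**Figure D1:**
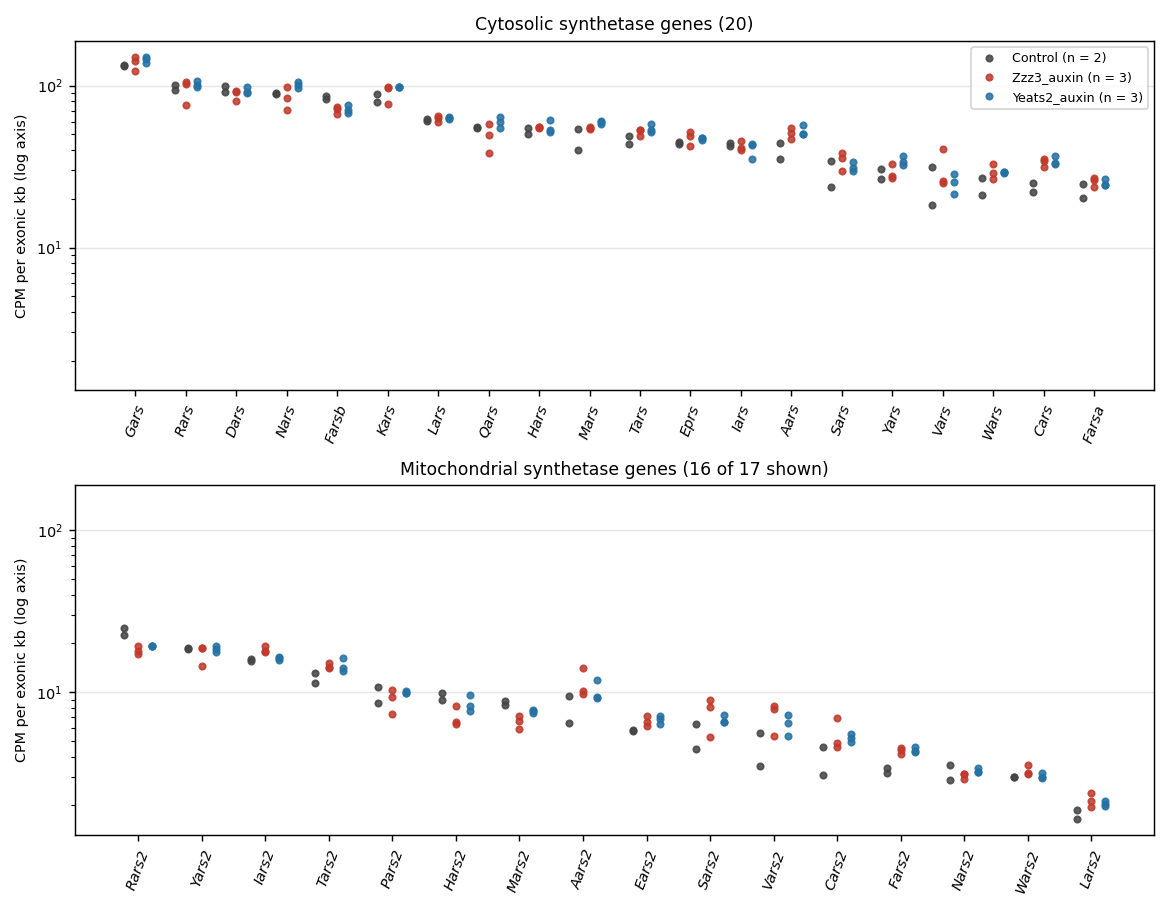
Level of each synthetase mRNA in every library, in CPM per kilobase of exon on a log axis, with the cytosolic genes above and 16 of the 17 mitochondrial genes below, ordered by their Control level. Each point is 1 library (2 Control, 3 Zzz3_auxin, 3 Yeats2_auxin); the difference between *Gars* at 134 and *Lars2* at 1.75 CPM per kb in Control exceeds any difference between groups within a gene.

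Per kilobase of annotated exon, the mRNA of the cytosolic enzyme had the higher level for every amino acid that both compartments charge with separate genes. In 18 of 18 cytosolic and mitochondrial pairs, counting *Farsa* and *Farsb* each against *Fars2* and *Eprs*, which charges glutamate and proline, against both *Ears2* and *Pars2*, the ratio of levels per kilobase was above 1 in all 8 libraries. The mean Control ratio ranged from 1.53 ± 0.171 for *Yars* over *Yars2* to 34.9 ± 2.32 for *Lars* over *Lars2*, with a median of 5.54. The size of a ratio depends on the annotated exon lengths, 5368 bases for *Lars* and 11089 for *Lars2*. Before division by length these genes had 328 and 19.4 CPM in Control. The ratio of *Mars* over *Mars2* was 4.52 and 6.45 in Control, 9.07, 7.87 and 8.20 in Zzz3_auxin and 7.86, 8.09 and 7.41 in Yeats2_auxin. All 6 auxin libraries lay above both controls, and *Rars* over *Rars2* and *Hars* over *Hars2* shared this feature. The opposite was seen for *Farsb* over *Fars2*, whose ratio was 27.0 and 24.5 in Control and 14.7 to 17.3 in the auxin libraries. *Lars* over *Lars2* and *Vars* over *Vars2* also lay below both controls in all 6 auxin libraries. Of the 18 pairs, 4 lay above and 4 below both controls in every Zzz3_auxin library. In Yeats2_auxin these counts were 6 and 6. Among levels of single genes, 16.8% of all genes lay above and 18.9% below both controls in every Zzz3_auxin library. In Yeats2_auxin these shares were 19.3% and 21.0%. No such share was computed for other pairs of genes, so the counts of pairs are not read as particular to the synthetases. These ratios were described without a test and without a correction for GC content.

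Summed over the 37 members, the synthetase mRNAs made up 0.604% and 0.651% of assigned reads in Control, 0.692%, 0.690% and 0.656% in Zzz3_auxin and 0.682%, 0.714% and 0.686% in Yeats2_auxin. All 6 auxin libraries lay above both controls, Zzz3_auxin replicate 3 by the smallest margin. On the TMM-scaled level the sum was 6187 and 6589 CPM in Control, and Zzz3_auxin replicate 3, at 6289 CPM, lay between the controls. The other 5 auxin libraries ranged from 6849 to 7205 CPM. The sum is dominated by the cytosolic genes, which contributed 5406 and 5759 CPM in Control against 781 and 830 CPM from the mitochondrial genes. In bulk RNA, fewer cells that express a gene and less RNA per cell cannot be told apart.

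Whether depletion of ZZZ3 altered these mRNAs was asked by comparing Zzz3_auxin with Control. Of the 37 members, 0 were called by edgeR at an adjusted P under 0.05, where 0.753% of all genes tested were called (132 of 17532). DESeq2 called 3 members (*Cars*, *Rars2* and *Mars2*) among 6.35% of all genes, and edgeR with no filter on low counts called 3 (*Cars*, *Aars2* and *Vars2*) among 4.67%. At an unadjusted P under 0.05 there were 12 members, 7 higher and 5 lower, where 21.7% of all genes passed (11.6% higher and 10.1% lower). They comprised 4 of the 20 cytosolic and 8 of the 17 mitochondrial members, the latter 4 in each direction. The libraries of Zzz3_auxin lay above both controls for 11 members and below for 5, against 16.8% and 18.9% of all genes. A log2 FC above 0 was seen in 24 members, where 51.1% of all genes were above 0. The median log2 fold change (FC) was 0.09 over the cytosolic members and 0.18 over the mitochondrial members, beside 0.01 over all genes tested and 0.04 over protein-coding genes.

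*Cars*, the cysteinyl enzyme (ENSMUSG00000010755, GRCm38 chromosome 7, 143557230 to 143600090, minus strand), came closest to a call. It had 144.6 and 165.7 CPM in Control and 231.6, 224.5 and 205.8 CPM in Zzz3_auxin. Every Zzz3_auxin library lay above both controls, and the log2 FC was 0.51 (SE 0.12, 95% interval 0.25 to 0.77, edgeR adjusted P 0.0697). Over the alternative fits its adjusted P ranged from 0.0083 with DESeq2 to 0.542 without Control replicate 1, and it was 0.0371 without Zzz3_auxin replicate 3. *Aars*, the alanyl enzyme, had 329 and 410 CPM in Control and 505, 476 and 435 CPM in Zzz3_auxin, also without overlap. Its log2 FC was 0.35 (SE 0.13, adjusted P 0.155). Exons of *Aars* share 14.3% of their length with *Exosc6* on the same strand, and union counting leaves reads in such stretches unassigned. *Farsb*, the β subunit of the phenylalanyl enzyme, lay below the controls in every Zzz3_auxin library, with 225 and 218 CPM against 188, 193 and 175 CPM, which gave -0.26 as log2 FC (SE 0.11, adjusted P 0.196). Its partner subunit *Farsa* had overlapping libraries.

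The mitochondrial members spread more widely. *Vars2*, the valyl enzyme, had the largest log2 FC of all members, 0.66 (SE 0.23, 95% interval 0.14 to 1.17, adjusted P 0.146). Its libraries had 19.0 and 30.5 CPM in Control and 43.1, 29.4 and 44.9 CPM in Zzz3_auxin, so that Zzz3_auxin replicate 2 lay between the controls. *Aars2* (alanyl) had a log2 FC of 0.51 (SE 0.21, adjusted P 0.189), with 30.6 and 45.2 CPM in Control and 48.3, 46.7 and 66.9 CPM in Zzz3_auxin. *Cars2* (cysteinyl) had a log2 FC of 0.50 (SE 0.21, adjusted P 0.201), with 22.3 and 33.4 CPM in Control and 33.0, 35.0 and 50.5 CPM in Zzz3_auxin. In these 3 genes Control replicate 1 was the lowest library, and in each the 2 controls were far apart. Without Control replicate 1 the log2 FCs of *Vars2*, *Aars2* and *Cars2* were 0.35, 0.25 and 0.23, and without Control replicate 2 they were 1.04, 0.82 and 0.83.

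At the other end stood *Hars2* (histidyl), *Mars2* (methionyl) and *Rars2* (arginyl), with log2 FCs of -0.41 (SE 0.16), -0.39 (SE 0.12) and -0.39 (SE 0.11) and edgeR adjusted P of 0.168, 0.102 and 0.101. *Rars2* had 69.4 and 62.5 CPM in Control and 49.7, 53.4 and 47.9 CPM in Zzz3_auxin. In all 3 of these genes every Zzz3_auxin library lay below both controls. *Fars2*, the mitochondrial phenylalanyl enzyme, ran the other way, with 18.3 and 19.5 CPM in Control and 23.9, 25.4 and 26.1 CPM in Zzz3_auxin, for a fitted log2 FC of 0.41 (SE 0.13, adjusted P 0.120). Reads of some members touch other genes: exons of *Hars2* share 4.56% of their length with *Hars* on the opposite strand and those of *Fars2* 8.72% with *Nrn1*. Also on the opposite strand, those of *Iars2* share 22.9% with *Rab3gap2*, those of *Farsb* 9.47% with *Sgpp2* and those of *Vars2* 8.52% with *Gm20483*. How strand was handled in counting is not given, so such reads cannot be attributed with certainty.

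For YEATS2 the same question gave a similar count. In Yeats2_auxin against Control, 0 of 37 members were called by edgeR, where 0.445% of all genes tested were called (78 of 17532), and DESeq2 called 1, *Cars*, among 2.48% of all genes. *Cars* was also the 1 member called with no filter, among 1.68% of all genes, and with only the compared groups, among 2.69%. At an unadjusted P under 0.05 there were 7 members, 4 higher and 3 lower, where 14.6% of all genes passed (7.65% higher and 6.98% lower). The libraries of Yeats2_auxin lay above both controls for 17 members, 11 of the 20 cytosolic and 6 of the 17 mitochondrial, where 19.3% of all genes did so, and below for 4, where 21.0% did so. A log2 FC above 0 was seen in 29 members, 17 cytosolic and 12 mitochondrial, where 48.9% of all genes were above 0. The median log2 FC was 0.12 over the cytosolic and 0.04 over the mitochondrial members, beside -0.01 over all genes tested. The controls are those of the ZZZ3 comparison, so the values of both comparisons are not independent of each other.

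*Cars* again came closest, with 217.8, 243.6 and 214.8 CPM in Yeats2_auxin, all above the controls, and a log2 FC of 0.54 (SE 0.12, 95% interval 0.28 to 0.80, edgeR adjusted P 0.0854). Its adjusted P ranged from 0.0061 with DESeq2 to 0.656 without Control replicate 1. It was 0.0277 when only the compared groups were fitted and 0.0293 without Zzz3_auxin replicate 3. *Aars* had 468, 528 and 467 CPM and a log2 FC of 0.40 (SE 0.13, adjusted P 0.198). *Mars*, the methionyl enzyme of the multi-synthetase complex, had 137 and 184 CPM in Control and 205, 207 and 198 CPM in Yeats2_auxin, for a fitted log2 FC of 0.34 (SE 0.13, adjusted P 0.262). *Wars* (tryptophanyl), *Tars* (threonyl) and *Kars* (lysyl) had log2 FCs of 0.28, 0.24 and 0.22, with every Yeats2_auxin library above both controls and adjusted P of 0.362, 0.349 and 0.447. *Farsb* had 185, 178 and 198 CPM in Yeats2_auxin, all below the controls, and a log2 FC of -0.25 (SE 0.11, adjusted P 0.314).

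Among the mitochondrial members, *Rars2* had 53.5, 53.7 and 53.2 CPM in Yeats2_auxin, all below the controls, and a log2 FC of -0.30 (SE 0.11, adjusted P 0.254). *Fars2* had 24.6 to 26.4 CPM, all above the controls, and a log2 FC of 0.42 (SE 0.13, adjusted P 0.180). *Vars2* and *Cars2* had log2 FCs of 0.48 (SE 0.23) and 0.44 (SE 0.21) with adjusted P of 0.363 and 0.362. The libraries of *Vars2* overlapped those of Control, while those of *Cars2*, at 35.5, 39.8 and 37.8 CPM, lay above both.

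**Figure D2:**
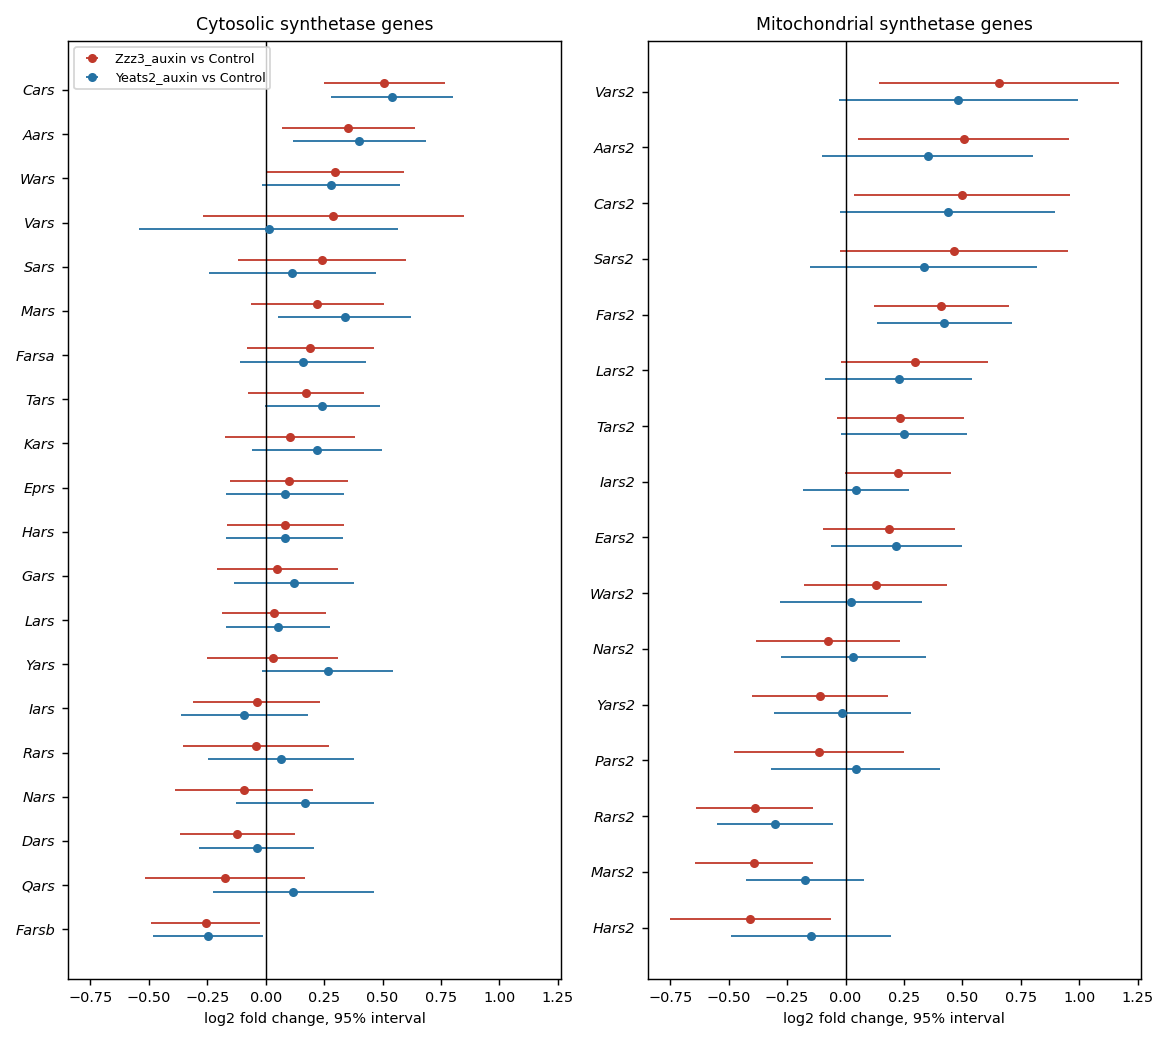
Log2 FC of each synthetase mRNA in Zzz3_auxin (red) and Yeats2_auxin (blue) against the same 2 Control libraries, with cytosolic genes on the left and 16 of the 17 mitochondrial genes on the right, ordered by the value in Zzz3_auxin. Points are edgeR estimates and bars their 95% intervals, which are not adjusted for the number of genes; *Cars* tops the cytosolic genes at 0.51 and 0.54, and *Hars2*, *Mars2* and *Rars2* stand at the lower end of the mitochondrial genes.

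The intervals show the spread between these libraries in the fit without a GC correction. They do not cover the GC trends that differ between libraries, so they do not bound what was missed. In Zzz3_auxin the 95% interval lay within a log2 FC of -1 to 1, a 2-fold change in either direction, for 36 of 37 members, the exception being *Vars2*, and within -0.5 to 0.5 for 19. In Yeats2_auxin these counts were 37 and 22. Standard errors ranged from 0.10 for *Lars* to 0.25 for *Vars* in both comparisons. After the correction for GC content and exon length given below, *Aars* in Zzz3_auxin had a log2 FC of 0.057. This lies outside its 95% interval of 0.068 to 0.640 before correction.

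Whether both depletions differed for these genes was examined by a direct comparison of Yeats2_auxin with Zzz3_auxin. By edgeR, 0 of 37 members were called and 0 had an unadjusted P under 0.05, where 6.25% of all genes did so (2.44% higher and 3.81% lower) and 0 of 17532 were called. DESeq2 called 0 members among 0.0171% of all genes. A log2 FC above 0 was seen in 22 members, where 47.8% of all genes were above 0. The median log2 FC was 0.04 over the cytosolic and 0.01 over the mitochondrial members. The extremes were *Qars*, the glutaminyl enzyme, at 0.29 (SE 0.14, adjusted P 0.779) and *Vars*, the cytosolic valyl enzyme, at -0.28 (SE 0.22, adjusted P 0.806). *Qars* had 328, 379 and 251 CPM in Zzz3_auxin and 394, 421 and 360 CPM in Yeats2_auxin, and *Vars* had 146, 140 and 226 CPM in Zzz3_auxin and 159, 121 and 142 CPM in Yeats2_auxin. In both genes Zzz3_auxin replicate 3 was the library farthest from the rest of its group. *Mars2* (log2 FC 0.22, SE 0.10, adjusted P 0.779), *Mars* and *Nars2* were higher in every Yeats2_auxin library than in every Zzz3_auxin library, and *Iars2* (-0.18, SE 0.09, adjusted P 0.779) was lower, against 5.25% and 5.82% of all genes. *Nars*, the cytosolic asparaginyl enzyme, and *Hars2* had log2 FCs of 0.26 and 0.26 with overlapping libraries and the same adjusted P of 0.779. The intervals lay within -1 to 1 for all 37 members and within -0.5 to 0.5 for 30.

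Groups of members were then compared by their counts. The 12 cytosolic genes listed as ATF4 targets had a median log2 FC of 0.14 in Zzz3_auxin, with 10 of 12 above 0, 3 of 12 higher at an unadjusted P under 0.05 and 3 of 12 above both controls in every library. Over all genes these shares were 51.1%, 11.6% and 16.8%. In Yeats2_auxin the median was 0.20, with 11 of 12 above 0, 3 higher at an unadjusted P under 0.05 and 10 of 12 above both controls in every library, beside 48.9%, 7.65% and 19.3% of all genes. The exceptions were *Iars* (isoleucyl), with 229, 185 and 227 CPM in Yeats2_auxin against 232 and 224 in Control, and *Sars* (seryl), with 159, 174 and 153 CPM against 122 and 177. None was called by edgeR in either comparison. The other 8 cytosolic genes had medians of 0.02 in Zzz3_auxin and 0.07 in Yeats2_auxin, with 1 above both controls in every library in each comparison. The median GC content of exons was 51.5% in the first list and 48.3% in the second. After correction for GC content and exon length, the medians in Zzz3_auxin were 0.09 for the first list and 0.06 for the second. In Yeats2_auxin they were 0.18 and 0.10. Before correction, the 5 members with TGATGNAA in the promoter window had log2 FCs from -0.04 to 0.35 in Zzz3_auxin, with a median of 0.05, and from -0.09 to 0.40 in Yeats2_auxin, with a median of 0.24.

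The 8 enzymes of the multi-synthetase complex (*Dars*, *Eprs*, *Iars*, *Kars*, *Lars*, *Mars*, *Qars* and *Rars*) had log2 FCs from -0.17 to 0.22 in Zzz3_auxin, with a median of -0.0014 and 0 members at an unadjusted P under 0.05, and from -0.09 to 0.34 in Yeats2_auxin, with a median of 0.07 and 1 such member, *Mars*. The 12 cytosolic enzymes outside the complex had medians of 0.18 and 0.16. Of their members, 4 and 3 had an unadjusted P under 0.05, beside 21.7% and 14.6% of all genes. After correction for GC content and exon length, the medians in Zzz3_auxin changed order, with 0.09 for the complex and 0.06 outside it. They were 0.14 and 0.15 in Yeats2_auxin. At an unadjusted P under 0.05 there were then 0 members of the complex in Zzz3_auxin and 2 in Yeats2_auxin. Outside the complex there were 2 in each comparison. Of all 17532 genes, 2899 and 2284 passed after the correction. The 19 class I genes had medians of 0.13 and 0.08 in Zzz3_auxin and Yeats2_auxin, and the 18 class II genes 0.10 and 0.14. *Gars* and *Kars*, which serve both compartments, had overlapping libraries in Zzz3_auxin and lay above both controls in every Yeats2_auxin library.

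**Figure D3:**
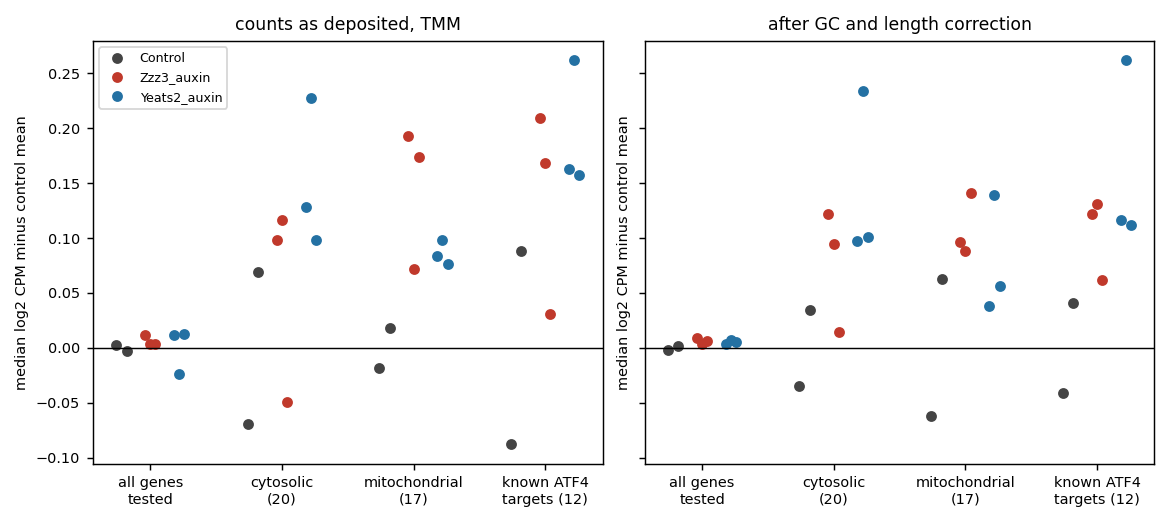
Median over all genes tested, the 20 cytosolic, the 17 mitochondrial and the 12 known ATF4 target synthetase genes of the log2 CPM in each library minus the mean of the controls, for the counts as deposited with TMM scaling (left) and after correction for GC content and exon length within each library (right). Each point is 1 library; for the cytosolic genes Zzz3_auxin replicate 3 lies at -0.05 on the left, while the Yeats2_auxin libraries lie at 0.10 to 0.23.

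The base composition of the members moved with these values. Exonic GC content ranged from 38.8% for *Mars2* to 60.9% for *Vars*. Across the 37 members, log2 FC and GC content had a Pearson r of 0.73 and a Spearman rho of 0.72 in Zzz3_auxin and 0.64 and 0.69 in Yeats2_auxin, as a description over genes that share the same libraries. Over all 13634 protein-coding genes tested, r was 0.39 and 0.32. The members with the highest values in Zzz3_auxin included GC-rich genes (*Vars2* with 58.6%, *Sars2* with 60.1% and *Aars* with 56.4%) and those with the lowest included AT-rich ones (*Mars2* with 38.8% and *Rars2* with 44.1%). The trends of Control replicate 1 and Zzz3_auxin replicate 3 on GC content run in opposite directions.

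After correction for GC content and exon length within each library, r over the 37 members was 0.19 in Zzz3_auxin and 0.17 in Yeats2_auxin. Among the mitochondrial members alone it remained at 0.40 and 0.42, and among the cytosolic members it was -0.17 and -0.15. *Vars2* then had a log2 FC of 0.28 in Zzz3_auxin in place of 0.66, *Aars2* 0.09 in place of 0.51, *Aars* 0.06 in place of 0.35 and *Mars2* -0.20 in place of -0.39. *Cars* had 0.34 (edgeR adjusted P 0.154) in Zzz3_auxin and 0.41 (adjusted P 0.139) in Yeats2_auxin. *Cars2* hardly moved, at 0.50 and 0.43, and *Hars2* had -0.37 in Zzz3_auxin. The correction moved 18 of 37 values by over 0.1 in Zzz3_auxin and 15 in Yeats2_auxin, turned the sign of 5 in each, *Vars* from 0.29 to -0.16 in Zzz3_auxin among them, and left 0 members called in either, where 0.953% and 0.753% of all genes were called. The mitochondrial median was then 0.09 in Zzz3_auxin and 0.10 in Yeats2_auxin, against 0.18 and 0.04 before, and the cytosolic median 0.08 and 0.14. At an unadjusted P under 0.05 there were then 6 of 37 members in each comparison. Of the 17 mitochondrial members, 4 passed in Zzz3_auxin and 2 in Yeats2_auxin. Of all 17532 genes, 2899 and 2284 passed.

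**Figure D4:**
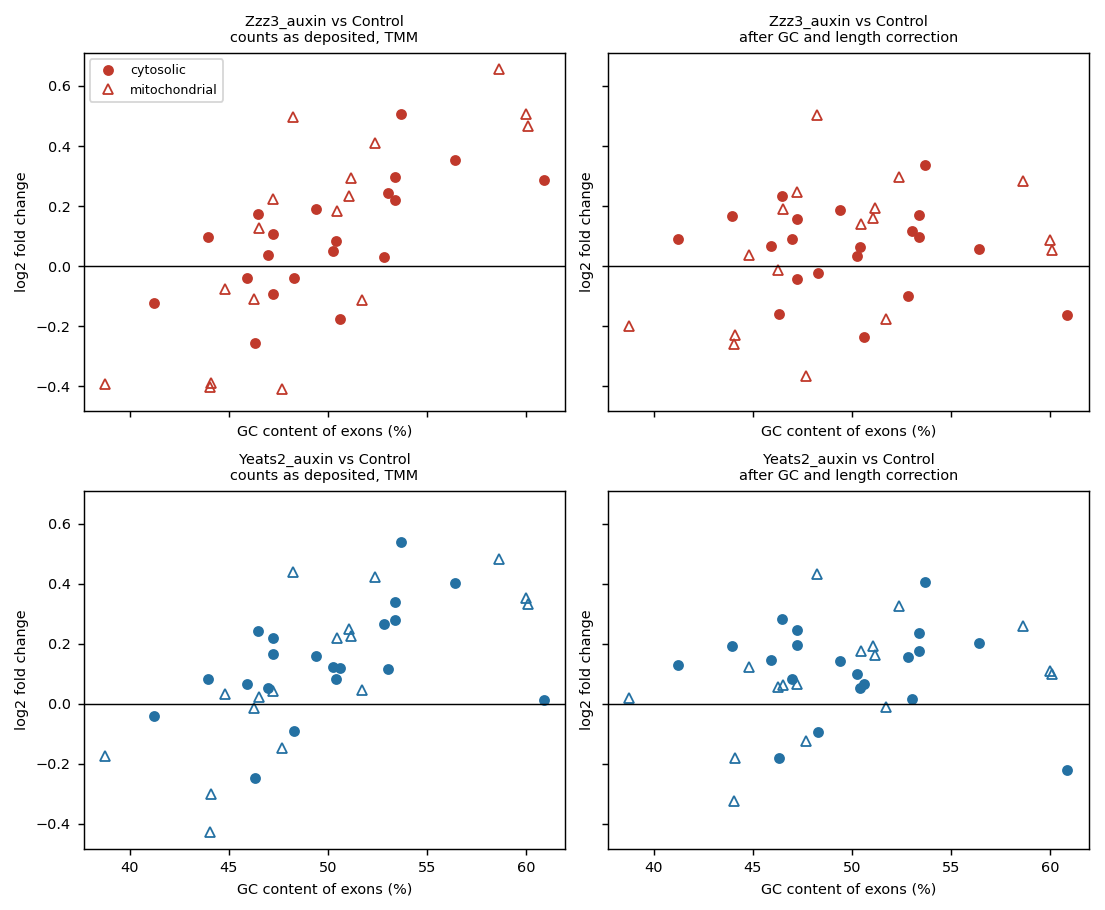
Log2 FC of the 37 synthetase genes against the GC content of their exons in percent, for Zzz3_auxin (top) and Yeats2_auxin (bottom) against Control, before (left) and after (right) correction for GC content and exon length within each library. Filled circles are cytosolic and open triangles mitochondrial genes; Pearson r across the 37 genes is 0.73 and 0.64 on the left and 0.19 and 0.17 on the right.

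Genes that act beside the synthetases were described from 7 fixed lists with 38 genes. In Zzz3_auxin, where 0.753% of all genes were called, 1 was called by edgeR, *Sesn2*, a leucine sensor that restrains mTORC1 and a known target of ATF4 and p53, which rose from 71.3 and 94.6 CPM in Control to 153, 148 and 200 CPM. Its log2 FC was 1.01 (SE 0.17, adjusted P 0.0359), and the call was lost in 9 of the 15 alternative fits, with adjusted P up to 0.473. In Yeats2_auxin 0 were called, with *Sesn2* at 0.81 (SE 0.17, adjusted P 0.0728). After correction for GC content and exon length, 1 of the 13 tested genes on the list of other ATF4 targets was called in each comparison. The smallest edgeR adjusted P on that list was then 0.0376 in Zzz3_auxin and 0.0492 in Yeats2_auxin, and the highest log2 FC 0.64 and 0.59. Of all genes, 0.953% and 0.753% were then called. Before correction, the 13 tested genes of this list had median log2 FCs of 0.06 in Zzz3_auxin and 0.01 in Yeats2_auxin. Of them, 9 and 8 were above 0. With an unadjusted P below 0.05, 3 rose and 0 fell in each comparison. Over all genes, 11.6% rose and 10.1% fell in Zzz3_auxin, and 7.65% and 6.98% in Yeats2_auxin. All libraries lay above both controls for 3 and 4 of the 13, and below for 1 in each. After correction, 6 of the 13 were above 0 in each comparison. *Atf4* itself had 208 and 246 CPM in Control, 201, 217 and 289 CPM in Zzz3_auxin and 228, 241 and 207 CPM in Yeats2_auxin. *Asns*, asparagine synthetase, had 1156 and 1208 CPM in Control and between 1080 and 1215 CPM in the auxin libraries. In both genes the libraries overlapped those of Control. *Trib3*, a pseudokinase induced by ATF4, had log2 FCs of 0.49 and 0.52 (SE 0.18 in each, adjusted P 0.154 and 0.228), *Phgdh* of serine synthesis 0.78 in Zzz3_auxin (SE 0.24, adjusted P 0.109) and *Ddit4*, an mTORC1 inhibitor, 0.79 in Yeats2_auxin (SE 0.28, adjusted P 0.230).

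Mitochondria make glutaminyl-tRNA by amidation of glutamyl-tRNA rather than with a synthetase of its own, and *Gatb* encodes a subunit of the amidotransferase. *Gatb* had 27.7 and 32.1 CPM in Control, 45.7, 41.0 and 41.8 CPM in Zzz3_auxin and 39.1, 44.8 and 43.5 CPM in Yeats2_auxin. All auxin libraries lay above both controls, with log2 FCs of 0.52 and 0.51 (SE 0.13 in each, edgeR adjusted P 0.0790 and 0.134). Its partner *Gatc* had log2 FCs of -0.48 and -0.33 (SE 0.23 and 0.22, adjusted P 0.246 and 0.515). Of the 3 scaffold genes of the multi-synthetase complex, *Eef1e1* had a log2 FC of -0.35 in Zzz3_auxin (SE 0.12, adjusted P 0.126), with *Aimp1* at -0.02 and *Aimp2* at 0.21. Among genes of uncharged tRNA sensing, *Gcn1l1* had 0.56 and *Impact*, an inhibitor of GCN2 activation, -0.38 in Zzz3_auxin (SE 0.19 and 0.12, adjusted P 0.137 and 0.113). *Prorsd1*, a relative of a prolyl-tRNA editing domain, had -0.38 and -0.35 (SE 0.13 in each, adjusted P 0.142 and 0.258), and *Eefsec*, the elongation factor for selenocysteine, 0.51 in Zzz3_auxin (SE 0.17, adjusted P 0.130). The list of tRNA maturation, export and delivery (*Trnt1*, *Xpot*, *Eef1a1* and *Tufm*) had 0 of 4 genes at an unadjusted P under 0.05 in either comparison. Of all genes, 21.7% in Zzz3_auxin and 14.6% in Yeats2_auxin passed. With the correction for GC content and exon length, 1 of the 4 was higher at this level in each comparison. After correction for GC content and exon length, the log2 FC in Zzz3_auxin was 0.12 for *Gcn1l1*, -0.18 for *Impact*, 0.17 for *Trib3*, 0.24 for *Eefsec*, -0.13 for *Prorsd1*, -0.19 for *Eef1e1* and 0.48 for *Phgdh*, while *Gatb* stood at 0.50. In Yeats2_auxin it was 0.30 for *Trib3*, -0.14 for *Prorsd1*, 0.54 for *Ddit4* and 0.48 for *Gatb*. Without Control replicate 1 or 2, *Gcn1l1* had 0.27 or 0.92 in Zzz3_auxin. None of these genes other than *Sesn2* was called before or after the correction.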

How the data were processed

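The deposited values are raw read counts per gene. Per the methods and processing notes of the study, the authors aligned reads to mm10 with STAR 2.5.3a and counted them with HTSeq 0.6.1p1. The strand option is not given in the sources used here. The labels name poly(A) RNA, while the protocol describes depletion of ribosomal RNA. Symbols, positions, exon lengths and GC content came from GENCODE M21 (GRCm38), which matched 55141 of 55401 identifiers. The 5 tally rows were left out.

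Counts were filtered with filterByExpr and scaled by TMM. All 8 libraries were fitted together with 1 mean per group by edgeR 4.0.16 (robust quasi-likelihood, R 4.3.3, two-sided). P values were adjusted by Benjamini and Hochberg over all 17532 genes tested and called at under 0.05. The pipeline was tested on simulated data. Counting error is small at 14315120 to 27884704 assigned reads, and precision is limited by 2 controls. No duplicate libraries were found, but Yeats2_auxin replicates 1 and 3 were much closer to each other than any other pair within a group. The chi-square per gene between their counts was 3.82, against 22.1 to 53.9 for the other pairs. The cause was not tested. Alternatives were DESeq2 1.42.0, median-of-ratios size factors, no filter, only the compared groups, a replicate block, a GC and length correction (lowess span 0.3) and leaving out libraries.

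The members and lists were chosen with earlier results of these data known. Named were the 3 highest and 3 lowest log2 FCs per compartment and comparison, the levels at each end, members of sub-lists, and related genes called or with an unadjusted P under 0.05. *Rars2* and *Fars2* in Zzz3_auxin, the pairs whose ratios are given, and *Atf4*, *Asns*, *Aimp1*, *Aimp2* and *Gatc* were added after their values were seen. One member that the rule names and one promoter window are not reported here.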

Additional observations from a re-analysis of the deposited data

How the results depend on the processing

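The counts of called genes depended on single libraries and on the fit. In Zzz3_auxin against Control there were 1114 called genes with DESeq2, 1542 with no filter, 42 with the replicate block, 18 without both libraries with the widest GC trend (Control replicate 1 and Zzz3_auxin replicate 3, chosen after seeing the data) and 0 with only the compared groups, where 2606 had an unadjusted P under 0.05. Leaving out 1 library gave 0 (without either control, with 1569 and 3909 genes at an unadjusted P under 0.05) to 841 (without Zzz3_auxin replicate 2). In Yeats2_auxin against Control the counts were 434, 553, 32, 8 and 454 in turn, 132 after the GC and length correction, and 0 (without Control replicate 1 or Yeats2_auxin replicate 3, with 1129 and 1904 genes at an unadjusted P under 0.05) to 217 (without Zzz3_auxin replicate 3). In the direct comparison they were 3 with DESeq2, 117 with no filter, 1 without both libraries with the widest GC trend and 0 to 1 with a library left out.

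Called synthetase members numbered 3 with DESeq2 and 3 with no filter (*Cars*, *Aars2* and *Vars2*) in Zzz3_auxin, and 1 (*Cars*) with DESeq2, no filter or only the compared groups in Yeats2_auxin. With a library left out they numbered 0 to 1 in each, the call being *Cars* without Zzz3_auxin replicate 3. In the other alternatives 0 members were called. The mitochondrial median log2 FC in Zzz3_auxin was 0.0879 after the GC and length correction, 0.0960 without both libraries and 0.128 to 0.202 with 1 library left out. In Yeats2_auxin it was 0.100, 0.113 and 0.047 to 0.222, the highest without Control replicate 2, where the cytosolic median reached 0.2455 (lowest 0.103). In Yeats2_auxin against Zzz3_auxin it ran from -0.0442 to 0.0411. The cytosolic median in Zzz3_auxin ran from 0.0153 (without Control replicate 1) to 0.1457 (without Control replicate 2).

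Some single genes changed sign. *Dars* was 0.0895 in Zzz3_auxin after the GC correction and 0.0046 without both libraries. In Yeats2_auxin it was 0.1283, 0.0307, 0.0006 with the replicate block and -0.0904 to 0.0165 with a library left out. *Mars2* was 0.0193 in Yeats2_auxin after the GC correction. *Iars* ran from -0.1406 to 0.0028 in Yeats2_auxin and from -0.107 to 0.0412 in the direct comparison. *Aars2* in the direct comparison was 0.0194 after the GC correction, 0.0326 without both libraries and -0.2807 to 0.0294 with a library left out. The causes were not tested.

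Same-numbered libraries had correlations of their deviations from the group mean between -0.338 and 0.305. Not every library correlated best with its own number. The 2 controls deviate from their mean by equal amounts in opposite directions, so their correlations with any other library have opposite signs. These values therefore cannot tell whether the replicate numbers pair the samples. The block is given only for its counts above.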
